A study of Mus musculus with 6 samples.

Results

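The transcripts of 40 genes of the cell division cycle were measured by RNA-seq in mouse embryonic fibroblasts (MEFs). The genes were a fixed list read from the raw count of every library: 20 genes of DNA replication and S phase, from Mcm2 to Gins2, here the replication group, and 20 genes of mitosis, from Ccnb1 to Kif20a, here the mitotic group. They were 40 of 55291 genes listed and of 14290 genes with enough counts to be tested, and all 40 were among the tested genes. The cells were labelled WT, with no altered allele named, and 3 groups of 2 libraries were compared: vehicle, MASM7 at 1 μM for 6 h, and MFI8 at 20 μM for 6 h. MASM7 is a small-molecule activator and MFI8 a small-molecule inhibitor of mitofusins, the outer-membrane GTPases that tether and fuse mitochondria. The concentrations and the time come from the study's own description of these samples, and no time was found for vehicle. Because the compounds were given at different concentrations, compound and concentration cannot be told apart, and the values describe these WT cells alone. The sample labels tell the libraries of a group apart only by a number. They are treated here as replicates and called Vehicle 1 and Vehicle 2, MASM7 1 and MASM7 2, and MFI8 1 and MFI8 2.

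A dividing cell first loads the MCM helicase onto replication origins in G1, copies its DNA in S phase, and then builds the cyclin and kinase machinery that separates the copies in mitosis. Replication genes are typically transcribed at the border of G1 and S through E2F factors, whereas mitotic genes are typically transcribed in G2 through the cell cycle genes homology region (CHR) of their promoters, which the MuvB-based complexes bind. In a population of cells that do not divide in step, the level of each transcript is an average over all phases, so fewer cells in a phase and less RNA per cell cannot be told apart.

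The promoters of the 2 groups differed in letters that the gene list had not used. RefSeq promoter windows of GRCm38.p6, from 250 bases before to 50 bases after the transcription start, were found for 17 of the 20 replication genes and 16 of the 20 mitotic genes. The windows were searched on both strands for 3 elements: E2F (the letters TTTCGCGC, TTTGGCGC, TTTCCCGC and TTTGCCGC), CHR (TTTGAA and TTCGAA) and CCAAT. Stretches of 160 bases that end at the base before the start are shown for 4 members, picked after the matches were seen as clear examples of each kind of promoter. Mcm6 (chr1:128359706-128359865, minus strand) and Mcm5 (chr8:75109349-75109508, plus strand) are subunits of the replicative helicase. Kif11 (chr19:37376222-37376381, plus strand) encodes the kinesin that pushes spindle poles apart, and Top2a (chr11:99024190-99024349, minus strand) encodes the topoisomerase that untangles sister chromosomes. Each stretch reads 5′ to 3′ on the gene's own strand, and capitals mark E2F matches in the MCM genes and CHR matches in Kif11 and Top2a, where adjoining matches run together.
Mcm6: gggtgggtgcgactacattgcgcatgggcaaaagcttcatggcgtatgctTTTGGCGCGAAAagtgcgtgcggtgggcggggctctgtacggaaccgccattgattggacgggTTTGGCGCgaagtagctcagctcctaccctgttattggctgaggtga
Mcm5: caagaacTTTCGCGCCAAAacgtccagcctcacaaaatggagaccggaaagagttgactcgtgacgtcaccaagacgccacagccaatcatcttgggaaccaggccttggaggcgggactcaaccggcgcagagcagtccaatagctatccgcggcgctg
Kif11: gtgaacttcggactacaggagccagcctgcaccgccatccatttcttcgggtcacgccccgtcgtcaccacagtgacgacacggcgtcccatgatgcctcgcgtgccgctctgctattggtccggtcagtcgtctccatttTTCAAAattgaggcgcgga
Top2a: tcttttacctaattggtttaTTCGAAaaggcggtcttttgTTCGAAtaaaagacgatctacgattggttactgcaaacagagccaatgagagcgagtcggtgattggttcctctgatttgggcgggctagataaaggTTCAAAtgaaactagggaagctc

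Counting the first base of a match back from the start, the E2F letters of Mcm6 began at -110, -106 and -47 and those of Mcm5 at -153 and -149. The CHR letters of Kif11 began at -19 and those shown for Top2a at -140, -120 and -23. Over the whole window, E2F letters were present in 7 of 17 replication promoters (41.2%), namely Mcm3, Mcm5, Mcm6, Mcm7, Cdc6, Cdt1 and Orc1, and in 1 of 16 mitotic promoters (6.25%), that of Cdk1. Of the promoters of all tested genes that could be matched, 481 of 9816 (4.9%) held them. CHR letters showed the opposite pattern, with 3 of 17 replication promoters (17.6%), those of Mcm2, Mcm7 and Cdc45, against 13 of 16 mitotic promoters (81.2%) and 1591 of 9816 tested genes (16.2%). Within 50 bases of the start, CHR letters lay in 12 of 16 mitotic promoters (75%) and in 1 of 17 replication promoters (5.88%), beside 4.33% of tested genes. CCAAT, the box bound by NF-Y, was common to both groups, with 12 of 17 replication promoters (70.6%) and 15 of 16 mitotic promoters (93.8%) against 43.6% of tested genes. Among all 32851 promoter windows of the table, 2.26% held E2F letters, 19.2% CHR letters and 37.4% CCAAT. No E2F match overlapped a CHR match, and a match describes the letters and not a bound site.

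**Figure D1:**
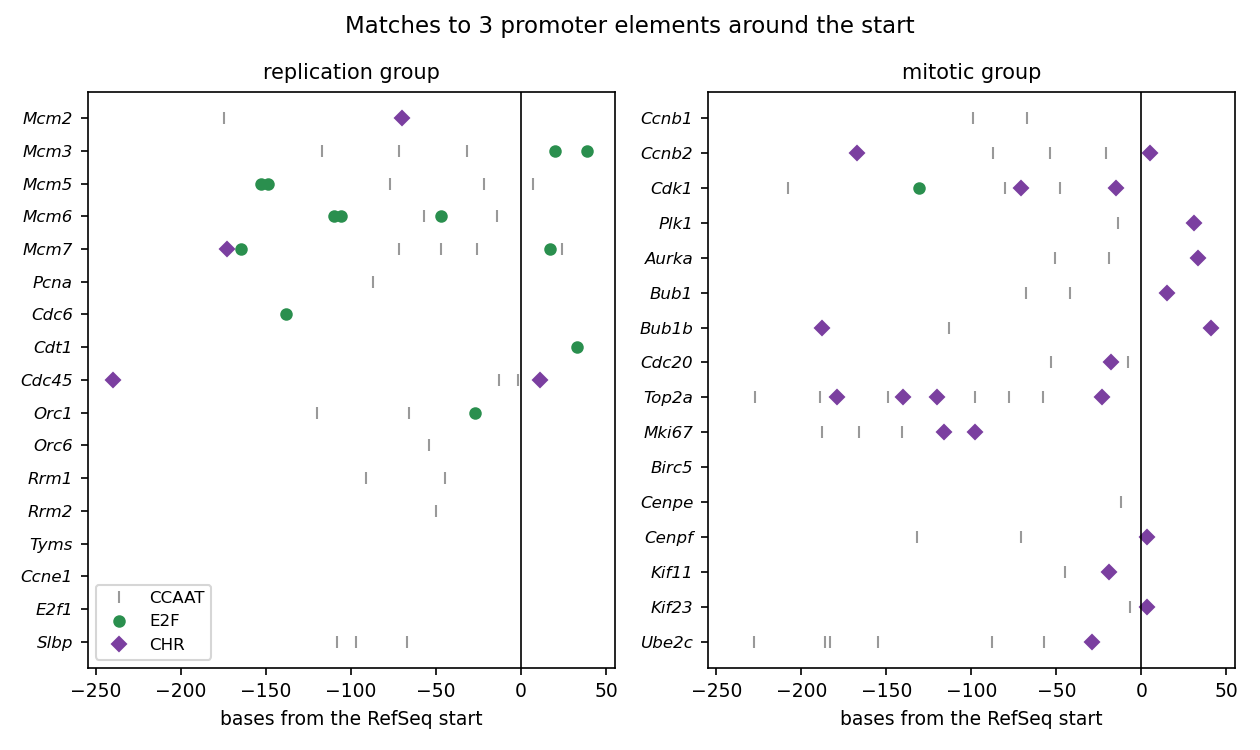
Matches to the E2F, CHR and CCAAT letters in the RefSeq promoter windows of 17 replication and 16 mitotic genes, plotted by the distance in bases of the match from the transcription start (vertical line). E2F matches lie in 7 replication genes and in Cdk1, whereas CHR matches lie in 13 mitotic genes and 3 replication genes, in 12 and 1 of them within 50 bases of the start.

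Library totals ran from 22791792 to 30677751 counts, with counts on 20599 to 21558 genes, and counting error was therefore small for these transcripts. All 10 fibroblast markers were detected, and their levels in TPM (transcript abundance corrected for length and scaled to the same total in each library) summed to 4818 to 5914, although Thy1 (0.28 to 0.75 TPM) and Postn (0.13 to 0.29 TPM) were close to 0. Epithelial markers summed to 1.44 to 1.54 TPM in the vehicle libraries and were higher with both compounds (2.07 to 2.15 TPM for MASM7, 1.81 to 2.21 TPM for MFI8). Endothelial markers summed to 0.375 to 0.428 TPM under vehicle, 0.252 to 0.263 TPM under MASM7 and 0.212 to 0.433 TPM under MFI8. Muscle markers, all near 0, summed to 0.879 to 1.17 TPM with vehicle, 0.761 to 1.06 TPM with MASM7 and 1.82 to 1.83 TPM with MFI8. Macrophage and blood markers were lower with MFI8, at 13.4 to 14.4 TPM, than with vehicle (15.4 to 16.3 TPM) or MASM7 (14.6 to 16.9 TPM). Nearly all of this was Cd68 (8.91 to 11.88 TPM) and Csf1r (4.18 to 6.01 TPM), while Ptprc had at most 2 counts. Neural markers, nearly all Nes and Tubb3, summed to 267 to 268 TPM with vehicle, 284 to 295 TPM with MASM7 and 296 to 314 TPM with MFI8, without overlap, while Sox10 was at 0. The part of these markers in the results that follow was not tested.

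All 40 genes were well expressed under vehicle on the TPM scale. In the replication group, Rrm2, the small subunit of ribonucleotide reductase, was highest at 479 ± 0.889 TPM (SD, n = 2). It was followed by the helicase subunit Mcm4 at 334 ± 16.2 TPM and the sliding clamp Pcna at 298 ± 19.6 TPM. The lowest were the helicase loader Cdc6 at 50.5 ± 1.51 TPM, cyclin E1 (Ccne1) at 43.1 ± 0.417 TPM and the origin recognition subunit Orc1 at 30.5 ± 0.191 TPM. The vehicle libraries of these low members did not overlap with one another. In the mitotic group, cyclin A2 (Ccna2) was highest at 401 ± 27 TPM, ahead of Top2a at 338 ± 25.1 TPM and Ube2c, the ubiquitin-conjugating enzyme of the anaphase-promoting complex, at 287 ± 26.5 TPM. The lowest were the cytokinesis kinesin Kif23 at 98.5 ± 7.24 TPM, the kinetochore kinesin Cenpe at 93 ± 7.94 TPM and the kinetochore protein Cenpf at 26.6 ± 3.17 TPM. The vehicle libraries of Kif23 and Cenpe overlapped, whereas those of Top2a and Ube2c did not.

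**Figure D2:**
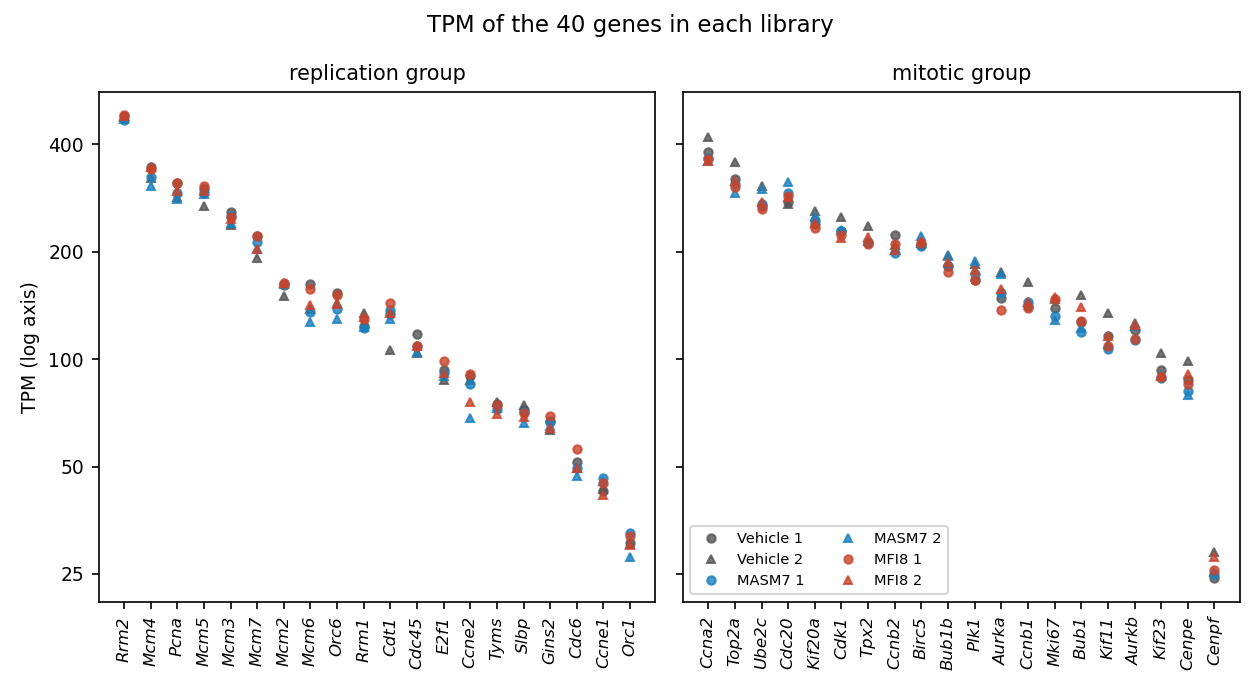
TPM of each of the 40 genes (log axis) in the 6 libraries, ordered within each group by the vehicle mean, with colours for treatment and symbols for the library number. The replication genes run from Rrm2 at 479 TPM to Orc1 at 30.5 TPM and the mitotic genes from Ccna2 at 401 TPM to Cenpf at 26.6 TPM, and differences between libraries are small beside differences between genes.

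The summed levels of the 2 groups of genes differed less between treatment means than between the vehicle libraries. Counts scaled by library size and TMM factors (CPM) summed over the 20 replication genes to 3755 in Vehicle 1 and 3496 in Vehicle 2, to 3629 and 3532 in the MASM7 libraries and to 3690 and 3566 in the MFI8 libraries. The means were 3625 ± 183, 3581 ± 68.5 and 3628 ± 88.3 CPM (SD, n = 2 each), and every group overlapped with the others. The 20 mitotic genes summed to 4852 CPM in Vehicle 1 and 5270 CPM in Vehicle 2, to 4758 and 4837 CPM with MASM7 and to 4621 and 4781 CPM with MFI8. Both libraries of each compound therefore lay below both vehicle libraries, with means of 5061 ± 296 CPM for vehicle, 4797 ± 55.7 CPM for MASM7 and 4701 ± 113 CPM for MFI8. The nearest values of vehicle and MASM7, however, were closer than the replicates of vehicle were to each other.

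The ratio of mitotic to replication CPM was 1.29 in Vehicle 1 and 1.51 in Vehicle 2, 1.31 in MASM7 1 and 1.37 in MASM7 2, 1.25 in MFI8 1 and 1.34 in MFI8 2. The spread of the vehicle replicates thus covered both MASM7 values and the higher MFI8 value. Within vehicle, library 2 was lower than library 1 for 16 of 20 replication genes (median log2 difference -0.11) and higher for 18 of 20 mitotic genes (median 0.13). The same directions appeared between the libraries numbered 2 and 1 of MASM7, at 16 of 20 replication genes lower (median -0.051) and 16 of 20 mitotic genes higher (median 0.034). They appeared also within MFI8, at 17 of 20 lower (median -0.083) and 16 of 20 higher (median 0.064). Of all genes tested, 49.9% to 51.5% were higher in library 2, a share that the scaling of the libraries centres. The summed fibroblast markers were also lower in library 2 of each treatment, at 4818 against 5835 TPM for Vehicle, 5305 against 5914 TPM for MASM7 and 4821 against 5586 TPM for MFI8. Their part in the result was not tested.

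**Figure D3:**
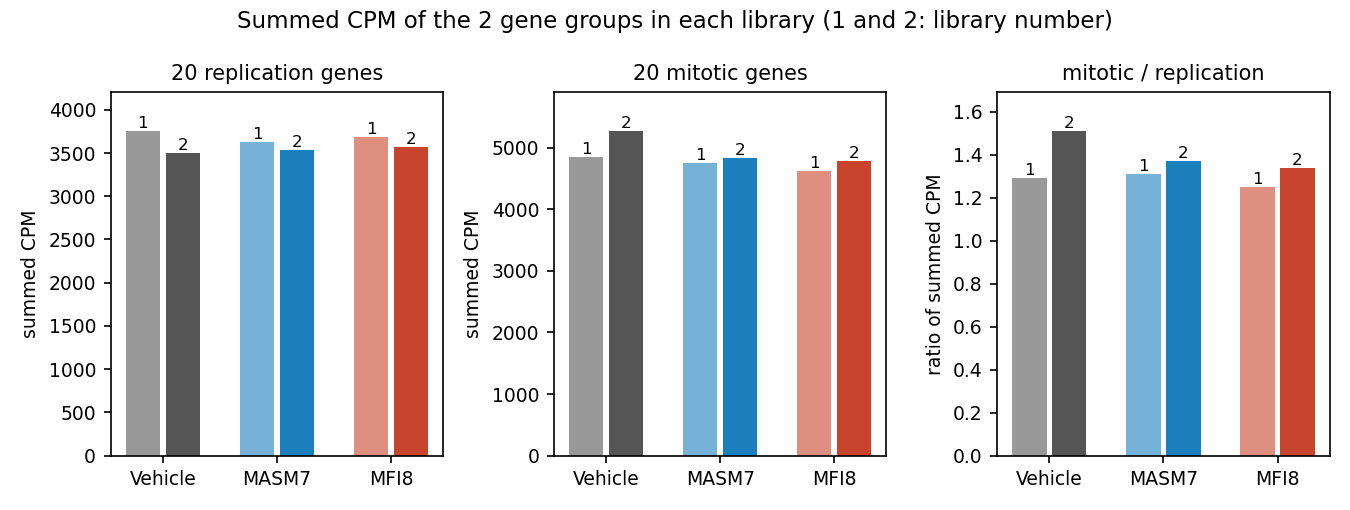
Summed CPM of the 20 replication genes and of the 20 mitotic genes in each library, and the ratio of the sums, with 1 bar per library. Vehicle 1 and Vehicle 2 (ratios of 1.29 and 1.51) are further apart than the 2 libraries of MASM7 (1.31 and 1.37) or MFI8 (1.25 and 1.34).

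MFI8 was compared with vehicle to see the transcripts of cells whose mitofusins were inhibited. Most mitotic genes had slightly lower fitted values with MFI8, whereas the replication genes were split between lower and higher values. In the mitotic group 18 of 20 genes had a lower fitted value and 2 a higher one, with a median log2 fold change of -0.10 (-6.77%, range -0.19 to 0.031). The replication group had 11 lower and 9 higher genes and a median of -0.0087 (range -0.12 to 0.19). Its number of lower genes was 6 without Vehicle 1, 18 without Vehicle 2, 16 without MFI8 1 and 7 without MFI8 2. On the log2(TPM + 1) scale it was 6. The median over all tested genes was 0.0027, with 49.3% of genes lower. With library size alone the replication median was 0.0018 beside 0.013 over all genes, and on the log2(TPM + 1) scale it was 0.018 beside 0.025, so it stayed just below that of all genes. The mitotic median on the latter scale was -0.073. On the scale of the edgeR fit the medians of the mitotic and replication groups differed by -0.092. The mitotic median of each library, as a log2 deviation from the mean of the 6 libraries, minus the replication median was -0.059 in Vehicle 1 and 0.17 in Vehicle 2, against -0.12 in MFI8 1 and 0.012 in MFI8 2. MFI8 was thus lower than the vehicle library of the same number both times, although the groups overlapped.

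Whether any of the 40 genes passed the test in this comparison depended on whether the libraries were paired by their number. Without pairing, in the quasi-likelihood test of edgeR, adjusted after Benjamini-Hochberg for all genes tested, 0 of 14290 genes (0%) had an adjusted p under 0.05, and the smallest among the members was 0.388. At an unadjusted p under 0.05 there were 1409 genes in all, and DESeq2 called 49 genes, of which 0 were members. Of the members, 5 mitotic genes, all of them lower, had an unadjusted p under 0.05, against 4.65% of all genes in that direction, while 0 did so in the higher direction (5.21% of all genes). No replication gene did in either direction. Both MFI8 libraries were below both vehicle libraries for 9 mitotic and 3 replication genes, where 19.3% of all genes were so placed. They were above them for 1 mitotic and 0 replication genes, against 20.9% of all genes. With the library number as a block in the edgeR fit, which takes out what libraries of the same number share, 720 genes (5.04%) had an adjusted p under 0.05. Of the members 5 did so, with Cdt1 higher at 0.20 (adjusted p = 0.037), where 2.79% of all genes were called higher. Kif11 (adjusted p = 0.0132), Ccna2 (0.0229), Kif23 (0.0302) and Aurka (0.0449) were lower, where 2.25% of all genes were called lower. By DESeq2 with the block Kif11 and Ccna2 were again called, but Cdt1 (adjusted p = 0.108), Kif23 (0.0529) and Aurka were not. With offsets for GC content and length added to the edgeR block the 4 lower genes were called, and Cdt1 was not, at a log2 fold change of 0.12 (adjusted p = 0.142). The labels do not say that a number marks a shared batch, so these calls rest on a pairing read from the numbers and the data. With 2 libraries against 2, an exact permutation test cannot give a p below 0.333.

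The mitotic cyclins and Cdk1 were all lower, at a median of -0.14 over 4 genes. Ccna2 (chr3:36564865-36572150, minus strand), which drives Cdk2 in S phase and Cdk1 at entry into mitosis, had 444 and 483 CPM with vehicle and 414 and 408 CPM with MFI8. The groups did not overlap, and the log2 fold change was -0.17 ± 0.0538 (SE, unadjusted p = 0.00927, edgeR adjusted p = 0.388), the smallest p of any member. It was -0.23 without Vehicle 1 and -0.11 without Vehicle 2. Cdk1, the kinase that starts mitosis, had 322 and 347 CPM with vehicle and 305 and 300 CPM with MFI8, again without overlap (log2 fold change -0.14 ± 0.0532). The B-type cyclins, its partners, were at -0.13 for Ccnb1, whose libraries overlapped (169 and 195 against 163 and 170 CPM), and -0.10 for Ccnb2, whose libraries did not (97.4 and 90 against 89.1 and 85.8 CPM).

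Spindle and cytokinesis genes were likewise all lower, at a median of -0.14 over 4 genes. Kif23 (chr9:61915905-61946774, minus strand) had 210 and 230 CPM with vehicle and 196 and 197 CPM with MFI8. Its log2 fold change was -0.17 ± 0.0569 (unadjusted p = 0.0154, edgeR adjusted p = 0.412), with no overlap, and it was -0.23 without Vehicle 1 and -0.10 without Vehicle 2. Kif11 (chr19:37376403-37421859, plus strand) had 247 and 284 CPM against 225 and 241 CPM, which did not overlap, and a log2 fold change of -0.19 ± 0.0694 (edgeR adjusted p = 0.425). Vehicle 1 lay nearer to MFI8 2 than to Vehicle 2, and the value was -0.28 without Vehicle 1 and -0.087 without Vehicle 2. The spindle assembly factor Tpx2 and the cytokinesis kinesin Kif20a were at -0.086 and -0.11.

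The kinases Plk1, Aurka and Aurkb, which organise centrosomes, the spindle and chromosome attachment, had log2 fold changes of -0.056, -0.16 and -0.070, all with overlapping libraries. Among the checkpoint and anaphase genes, the checkpoint kinase Bub1 was at -0.076, its relative Bub1b at -0.095 and Ube2c at -0.12. Cdc20, the activator of the anaphase-promoting complex, differed from them in direction, with 147 and 143 CPM under vehicle and 149 and 147 CPM with MFI8 (log2 fold change 0.031 ± 0.0558, edgeR adjusted p = 0.894). Of the chromosome and kinetochore genes, Top2a was at -0.16, Cenpe at -0.10, Cenpf at -0.013 and the passenger protein Birc5 at -0.010. The proliferation antigen Mki67 was the other gene with a higher value, at 399 and 415 CPM with vehicle and 411 and 416 CPM with MFI8 (log2 fold change 0.022 ± 0.0487, edgeR adjusted p = 0.913), and its libraries overlapped. The sign of Cdc20 and Mki67 turned when offsets for GC content and length were fitted (-0.013 and -0.032).

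In the replication group, the 6 helicase subunits Mcm2 to Mcm7 had a median of 0.012 with MFI8. Mcm5 had 341 and 301 CPM with vehicle and 340 and 329 CPM with MFI8 (log2 fold change 0.061 ± 0.0624, edgeR adjusted p = 0.783), and Mcm2 had 318 and 293 against 316 and 315 CPM (0.047 ± 0.0543, edgeR adjusted p = 0.812). For both, MFI8 lay inside the range of the vehicle replicates. Cdt1, which loads the helicase with Cdc6, had the highest log2 fold change of the members at 0.19 ± 0.0967 (edgeR adjusted p = 0.549). Its levels were 120 and 93.9 CPM with vehicle and 125 and 118 CPM with MFI8, so that Vehicle 2 alone was low and the groups overlapped. Without Vehicle 2 the value was 0.025.

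The genes of deoxynucleotide supply, Rrm1, Rrm2 and the thymidylate synthase Tyms, were at -0.015, -0.018 and -0.084. Tyms had 130 CPM in both vehicle libraries and 126 and 119 CPM with MFI8 (SE 0.0536, edgeR adjusted p = 0.623), with no overlap, and its log2 fold change was -0.12 without MFI8 1 and -0.041 without MFI8 2. Slbp, which binds the stem-loop of histone mRNA, had 125 and 127 CPM against 119 and 116 CPM (log2 fold change -0.10 ± 0.0553, edgeR adjusted p = 0.592), also without overlap. Cyclin E2 (Ccne2) had 89.6 and 85.9 CPM with vehicle and 88.4 and 73.6 CPM with MFI8 (log2 fold change -0.12 ± 0.108, edgeR adjusted p = 0.744), a difference that came from MFI8 2. The remaining replication genes (Mcm3, Mcm4, Mcm6, Mcm7, Pcna, Cdc6, Cdc45, Orc1, Orc6, Ccne1, E2f1 and Gins2) had values between -0.051 and 0.050.

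**Figure D4:**
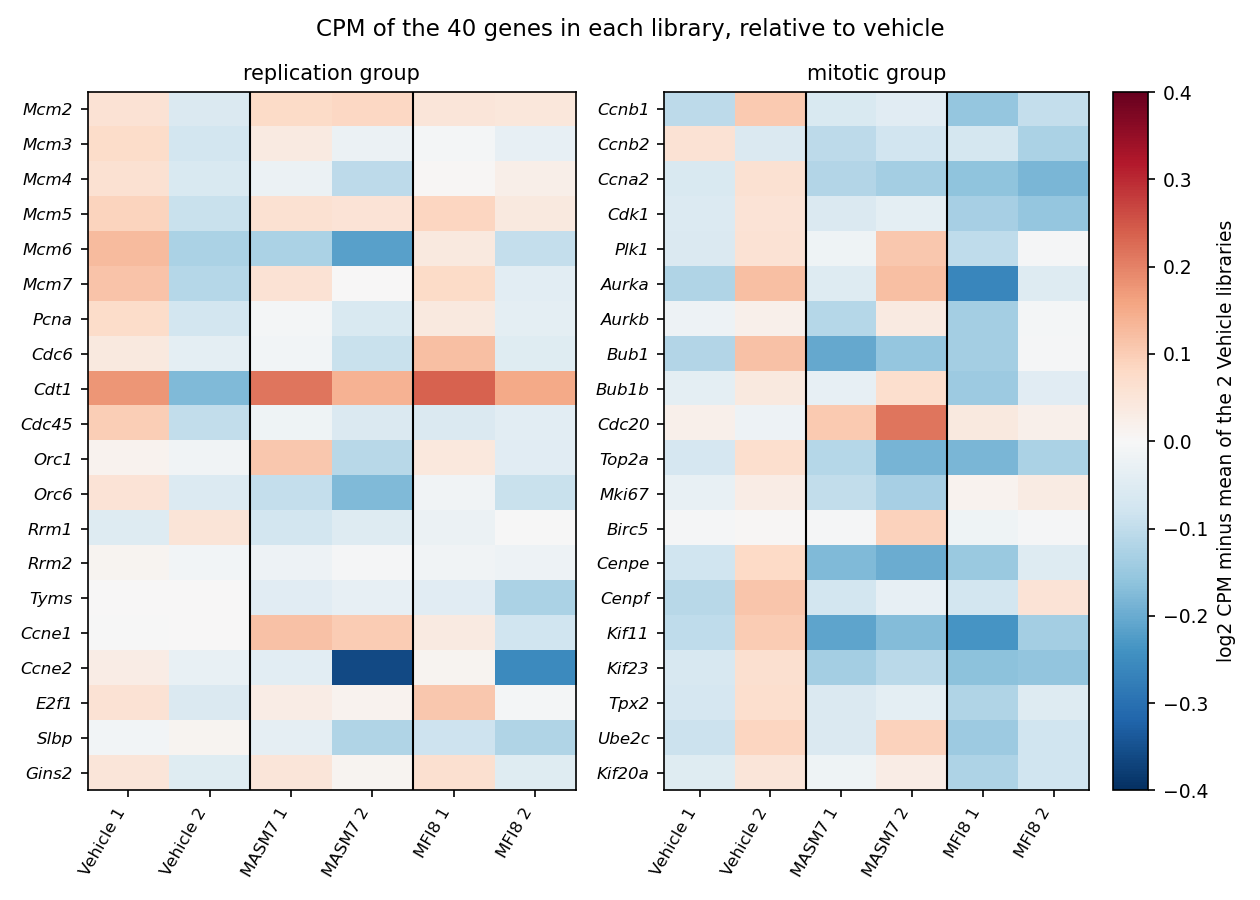
Log2 CPM of each gene in each library minus the mean of the 2 vehicle libraries (red higher, blue lower), with the replication group on the left and the mitotic group on the right. Vehicle 1 and Vehicle 2 differ in opposite directions in the 2 groups of genes, and many mitotic genes are blue in both MFI8 libraries.

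In fits without the block, the size of these medians depended on single libraries. Leaving out 1 library sets both numbers of a group against 1 number of the other, so a difference between numbers enters the fit. With all 6 libraries and the block the mitotic and replication medians differed by -0.092. Without Vehicle 1 the median with MFI8 was -0.16 for the mitotic and 0.056 for the replication group, and without Vehicle 2 it was -0.036 and -0.043. The difference between the groups of genes was then -0.22 or 0.0071, and it was -0.014 without MFI8 1 and -0.17 without MFI8 2. Other cell cycle genes, from lists outside the 40, were placed in a similar way. They were read from the same 6 libraries and are not independent of the members. Of 66 other mitotic genes 55 were lower with MFI8 (median -0.073), with 10 at an unadjusted p under 0.05, all lower, whereas 33 of 60 other replication genes were lower (median -0.0075), with 2 such genes in each direction. At that threshold 4.65% of all genes were lower and 5.21% higher. None passed after adjustment in either list without the block. With it 2.25% of all genes were called lower and 2.79% higher. Of the mitotic genes 5 were then called lower, and of the replication genes 1 higher and 3 lower. In the former, Pbk had a log2 fold change of -0.21 and Troap and Foxm1 of 0.12 and 0.061. In the latter, the polymerase subunit Pold1 was at 0.22 and the helicase Recql4 at 0.19, while Orc4 and the fork protein Tipin were both at -0.18. Of 36 regulators of G1 and quiescence 35 were tested and 18 were lower (median -0.0013). Without the block none was called, and with it 2 were called higher, Myc and Pkmyt1. Myc, the growth-promoting transcription factor, had 171 and 145 CPM with vehicle and 197 and 203 CPM with MFI8, a log2 fold change of 0.34 ± 0.0769 (edgeR adjusted p = 0.27). Pkmyt1, which holds Cdk1 inactive and so acts before mitosis rather than in G1, was at 0.22, and Ccng1 and Tfdp1 were at -0.15 and -0.07.

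The comparison of MASM7 with vehicle used the same vehicle libraries. The mitotic group had 13 lower and 7 higher genes, with a median log2 fold change of -0.053 (range -0.20 to 0.16), and the replication group 11 lower and 9 higher genes, with a median of -0.024 (range -0.19 to 0.17). The median over all genes was 0.00067, and the medians of the groups differed by -0.029. The mitotic minus replication deviation was -0.036 in MASM7 1 and 0.031 in MASM7 2, above Vehicle 1 and below Vehicle 2 respectively. By edgeR's quasi-likelihood test without a block 0 of 14290 genes (0%) passed after adjustment, with 0.473 the smallest adjusted p of a member. At an unadjusted p under 0.05 there were 1458 genes, and DESeq2 called 2 genes, of which 0 were members. The unadjusted threshold was met by 6 mitotic genes on the lower side (4.88% of all genes) and 1 on the higher side (5.32% of all genes), and by 0 replication genes. MASM7 libraries were apart from vehicle and lower for 8 mitotic and 5 replication genes (21.6% of all genes) and higher for 1 and 2 genes (21.2% of all genes). With the library number as a block 554 genes (3.88%) passed, and 5 members did, all lower, where 1.39% of all genes were called lower and 2.48% higher. These were Kif11 (edgeR adjusted p = 0.0168), Cenpe (0.021), Bub1 (0.0283), Mcm6 (0.0302) and Ccne2 (0.0452). With GC and length offsets added to the block 0 members were called, at adjusted p of 0.115 for Kif11, 0.107 for Cenpe, 0.0645 for Mcm6 and 0.507 for Ccne2. By DESeq2 with the block Kif11, Cenpe and Mcm6 were called and Bub1 was not, while Ccne2 was given no adjusted p.

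Kinetochore and chromosome genes were the lowest role within the mitotic group, at a median of -0.12 over 5 genes. Cenpe (chr3:135212537-135273611, plus strand) had 214 and 239 CPM with vehicle and 200 and 197 CPM with MASM7 (log2 fold change -0.19 ± 0.0635, edgeR adjusted p = 0.473). Kif11 had 229 and 235 CPM with MASM7 (-0.20 ± 0.0693, edgeR adjusted p = 0.473), and Top2a had 822 and 901 CPM with vehicle and 796 and 756 CPM with MASM7 (-0.15 ± 0.0582, edgeR adjusted p = 0.477). None of the 3 overlapped with vehicle, but without Vehicle 2 their values were -0.11, -0.094 and -0.082. Bub1, Ccna2 and Mki67 were the other genes with a lower value and an unadjusted p under 0.05, at -0.19, -0.13 and -0.12. Cdc20 (chr4:118432901-118437352, minus strand) had the highest log2 fold change of the 7 mitotic genes with higher values. It had 156 and 168 CPM with MASM7, above both vehicle libraries, and a log2 fold change of 0.16 ± 0.0555 (unadjusted p = 0.0186, edgeR adjusted p = 0.473). Birc5 and Plk1 had overlapping libraries and values of 0.044 ± 0.0529 and 0.049 ± 0.0685 (edgeR adjusted p = 0.78 and 0.813), and that of Plk1 turned to -0.049 with the GC and length offsets.

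Among replication genes, Mcm6 (chr1:128331590-128359664, minus strand) had 216 and 181 CPM with vehicle and 181 and 170 CPM with MASM7. Its log2 fold change was -0.18 ± 0.0831 (edgeR adjusted p = 0.501), with Vehicle 2 at the level of MASM7 1, and was -0.048 without Vehicle 1 and -0.30 without Vehicle 2. The origin recognition subunit Orc6 had 108 and 100 against 97.3 and 91.9 CPM (-0.13 ± 0.0622, edgeR adjusted p = 0.501), and was at -0.081 without Vehicle 1. Ccne2 had 85.2 and 68.3 CPM with MASM7 (-0.19 ± 0.108, edgeR adjusted p = 0.548), with MASM7 1 at the level of Vehicle 2, and its value was -0.36 without MASM7 1 and -0.042 without MASM7 2. Cdt1 had 123 and 117 CPM with MASM7 (0.17 ± 0.0964, edgeR adjusted p = 0.561), overlapping vehicle as before, and 0.0029 without Vehicle 2. Ccne1 had 32.4 and 32.5 CPM with vehicle and 35.2 and 34.8 CPM with MASM7, which did not overlap (0.11 ± 0.0724, edgeR adjusted p = 0.594). Mcm2 had 322 and 323 CPM with MASM7, just above Vehicle 1 (0.077 ± 0.0542, edgeR adjusted p = 0.623), and its value was 0.018 without Vehicle 2, 0.14 without Vehicle 1 and 0.038 with the GC and length offsets. Cyclins E1 and E2, which both drive entry into S phase, thus had fitted values of opposite sign. With the GC and length offsets these shrank to 0.055 and -0.068.

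Leaving out Vehicle 2 moved the MASM7 median of the mitotic group to 0.014. Leaving out Vehicle 1 moved that of the replication group to 0.031, so neither sign held in each of these unpaired fits. They set both numbers of MASM7 against 1 vehicle number, so a difference between numbers enters them. Within numbers the mitotic sum was lower with MASM7 both times (4758 against 4852 and 4837 against 5270 CPM). The replication sum was lower once (3629 against 3755 CPM) and higher once (3532 against 3496 CPM). Of 66 other mitotic genes 42 were lower with MASM7 (median -0.062), with 13 lower and 2 higher at an unadjusted p under 0.05. Ndc80 and the condensin subunit Smc2 were at -0.25 and -0.20 and Mybl2 and Troap at 0.20 and 0.18. Of 60 other replication genes 37 were lower (median -0.039), with 8 lower and 3 higher at that threshold. The polymerase subunits Pold1 and Pold2 were at 0.21 and 0.16 and the checkpoint mediator Clspn at -0.18. Of the G1 regulators E2f4 and Cdk4 were at 0.17 and 0.14 and Tfdp2 at -0.18, while Rb1, counted at only 5.65 to 8.68 CPM, was at -0.43. No gene of these lists passed after adjustment without the block. With it, 1 of the other mitotic genes was called higher and 8 lower, 2 of the other replication genes higher and 5 lower, and 1 G1 regulator higher. Of all genes, 1.39% were then called lower and 2.48% higher. At an unadjusted p under 0.05, 4.88% of all genes were lower and 5.32% higher.

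**Figure D5:**
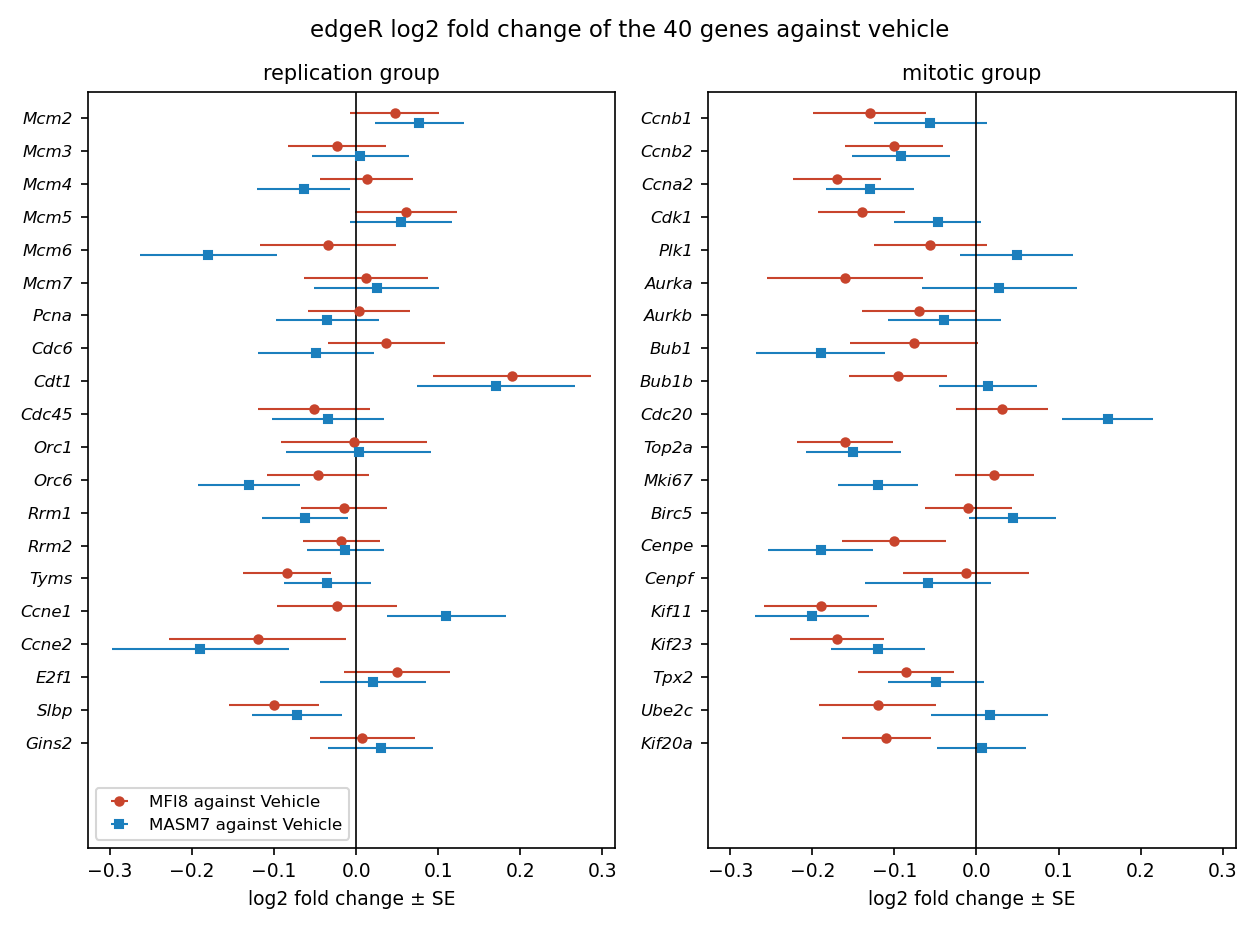
Fitted log2 fold change of each gene against vehicle with its SE, for MFI8 (circles) and MASM7 (squares). With MFI8 18 of 20 mitotic genes lie left of 0, against 11 of 20 replication genes, and with MASM7 13 and 11 do, while no gene passed the adjusted threshold in this fit, made without a replicate block.

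The base composition of the transcripts varied beside these values. The GC content of the members ran from 36.3% for Ccne2 to 58.3% for E2f1, with medians of 48.2% for the replication and 47.6% for the mitotic group. The 4 members of lowest GC content, Ccne2, Bub1, Kif11 and Cenpe, had log2 fold changes of -0.19, -0.19, -0.20 and -0.19 with MASM7. The 4 of highest GC content, E2f1, Cdt1, Plk1 and Cdc20, had values of 0.021, 0.17, 0.049 and 0.16. The cut at 4 was set after the values were seen. The next members in order were at -0.059 (Cenpf), -0.062 (Rrm1) and -0.15 (Top2a) at the low end and 0.016 (Ube2c) at the high end. With MFI8 the 4 of lowest GC content were at -0.12, -0.076, -0.19 and -0.10. Those of highest GC content were at 0.050, 0.19, -0.056 and 0.031. With offsets for GC content and length, chosen after the data had been seen, Kif11 and Cenpe were both at -0.11, Top2a at -0.074, Ccne2 at -0.068, Cdt1 at 0.056 and Cdc20 at 0.063 with MASM7. With MFI8 the same offsets gave -0.016 for Ccne2, 0.11 for Cdt1, 0.026 for Mcm5 and 0.014 for Mcm2, and -0.16, -0.15 and -0.15 for Ccna2, Kif23 and Kif11. The mitotic median was -0.061 with MASM7 and -0.10 with MFI8, close to the values without offsets, beside 6e-05 and -0.0043 over all genes. With MFI8 20 of 20 mitotic genes were then lower, Cdc20 and Mki67 only slightly (-0.013 and -0.032). With the offsets and no block 0 members were called.

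MFI8 at 20 μM and MASM7 at 1 μM were also set side by side, at unequal concentrations. Relative to MASM7, MFI8 had a median log2 fold change of -0.043 for the mitotic group (15 of 20 lower) and 0.00019 for the replication group (10 of 20 lower), beside -0.0015 over all genes. On the log2(TPM + 1) scale the medians were -0.00017 and 0.045 beside 0.038 over all genes, so the mitotic group again lay below all genes. On that scale 10 of 20 mitotic and 2 of 20 replication genes were lower. By edgeR's test without a block 0 of 14290 genes (0%) passed after adjustment, 1026 had an unadjusted p under 0.05, and DESeq2 called 29 genes, of which 0 were members. Of the members, 1 mitotic gene was higher (4.23% of all genes) and 1 lower (2.95% of all genes) at the unadjusted threshold. Libraries lay apart and lower for 9 mitotic and 2 replication genes, against 19.6% of all genes, and apart and higher for 3 and 4 genes, against 19.6%. With the block 439 genes (3.07%) passed, of which 1 was a member, Aurka, lower with MFI8 (adjusted p = 0.0193) where 1.31% of all genes were called lower and 1.76% higher. Aurka was called also with the offsets added (0.0148) but not by DESeq2 with the block (adjusted p = 0.126). The difference between the mitotic and replication medians ran from -0.11 without MFI8 2 to -0.013 without MASM7 2.

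The higher mitotic gene was Mki67, with 380 and 371 CPM under MASM7 against 411 and 416 CPM under MFI8 (log2 fold change 0.14 ± 0.0487, edgeR adjusted p = 0.62). The lower was Cdc20, with 156 and 168 against 149 and 147 CPM (-0.13 ± 0.0554, edgeR adjusted p = 0.689), and it was -0.18 without MASM7 1 and -0.070 without MASM7 2. Aurka had 111 and 125 against 96 and 111 CPM (-0.19 ± 0.0946, edgeR adjusted p = 0.706) and Kif20a 303 and 313 against 281 and 290 CPM (-0.11 ± 0.054, edgeR adjusted p = 0.704). The value of Aurka was -0.30 without MFI8 2 and -0.092 without MFI8 1. Bub1 and Cenpe were at 0.11 and 0.089, each above both MASM7 libraries with MFI8, and at 0.047 and 0.039 without MFI8 2. Mcm6 had 181 and 170 against 203 and 185 CPM (0.14 ± 0.083, edgeR adjusted p = 0.737), and Orc6 and Mcm4 were at 0.089 and 0.076, none of them overlapping. Without MASM7 2 Orc6 and Mcm4 were at 0.049 and 0.037, without MASM7 1 at 0.13 and 0.12, and Orc6 was at 0.052 without MFI8 1. Ccne1 had 35.2 and 34.8 against 33.3 and 30.7 CPM (-0.13 ± 0.072, edgeR adjusted p = 0.725), with Tyms and Mcm2 at -0.049 and -0.029. Without MFI8 2 the values of Mcm6, Ccne1 and Tyms were 0.21, -0.075 and -0.0063, and without MFI8 1 they were 0.077, -0.19 and -0.089.

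Some members overlap other annotated genes, and the strand setting of the counting was not given in the sources used here. In the GENCODE vM21 annotation of GRCm38, Mcm7 contains Mir106b, Mir25 and Mir93 and overlaps Ap4m1 and Cops6 on the opposite strand. Cdc20 overlaps Elovl1, Ccna2 overlaps Exosc9, Orc6 overlaps Vps35, Ccne2 overlaps Ints8, Cdc45 overlaps Ufd1, Ube2c overlaps Tnnc2 and Kif20a overlaps Cdc23, each on the opposite strand. On the same strand Cdt1 overlaps Gm20388, Rrm1 overlaps Gm45399 and Kif11 overlaps AC137605.4. Whether reads in these overlaps were shared was not tested. Pcna, Tyms, Ccnb1 and Ccnb2 have named pseudogenes, so their counts are uncertain to the extent that reads match both copies.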

How the data were processed

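Poly(A) RNA of 6 libraries of WT MEFs, 2 each with vehicle, MASM7 and MFI8, was sequenced. The authors used Trimmomatic for trimming, STAR for alignment to GRCm38 and featureCounts for reads on exons, and deposited the raw count of each gene, used here. They also deposited normalized counts, a signal on the count scale, not used for any result, and TPM values, used for levels between genes. The annotation release behind the counts and the strand setting are not given in the sources used here.

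Raw counts of 14290 of 55291 genes that passed filterByExpr were fitted with edgeR 4.0.16 (R 4.3.3; TMM, 1 coefficient per group, all 6 libraries, quasi-likelihood test, Benjamini-Hochberg adjustment, threshold 0.05). The common dispersion was 0.00394, and counts of replicates differed beyond sampling noise (chi-square per degree of freedom 7.06 to 7.69). SE was the size of the log2 fold change over the square root of F. Depth was 22791792 to 30677751 counts per library. The scripts were tested on simulated data. Groups of genes were described by counts and medians only. The labels number the libraries of each group 1 and 2 without saying that a number marks a shared batch. The differences between libraries 2 and 1 correlated across 14290 genes at 0.188 between vehicle and MASM7, 0.152 between vehicle and MFI8 and 0.165 between the compounds (0.508, 0.621 and 0.538 over the 7145 genes of higher count), so results of the fit with the library number as a block are given beside those without it.

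The members and lists were chosen with earlier results of these data known. Genes were named by rule: in each comparison, group and direction the 3 members of smallest unadjusted p, the 3 highest and 3 lowest members by vehicle TPM, and of each other list the 2 genes of smallest p in each direction against vehicle, of which some are not reported here. Values of other members fill each role, and the genes compared by GC content were chosen after their values were seen. Of the other lists, 3 symbols were matched by their newer names (Sgo1, Sgo2a, Pimreg). Positions, GC content and lengths came from GENCODE vM21, with a value for 97.9% of tested genes, and promoters from RefSeq (GRCm38.p6); Mcm4, Ccne2, Gins2, Ccna2, Aurkb, Tpx2 and Kif20a were not matched there.

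Alternatives were DESeq2 size factors, library size alone, no filter beyond 1 count, a minimum of 10 counts per library, fits of just the 2 groups at hand, a replicate block, the DESeq2 1.42.0 Wald test with and without the block, limma 3.58.1 on log2(TPM + 1) and log2(TPM + 0.1) for genes of at least 1 TPM in 2 libraries, and each library left out in turn. Offsets for GC content and length (lowess, span 0.3), alone and with the block, were chosen after seeing the data.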

Additional observations from a re-analysis of the deposited data

How the results depend on the processing

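Members called at an adjusted p under 0.05 were 0 in all 3 comparisons under every alternative without the replicate block. With the replicate block, 5 members were called for MFI8 against vehicle (Cdt1 higher; Ccna2, Aurka, Kif11 and Kif23 lower), 5 for MASM7 (Mcm6, Ccne2, Bub1, Cenpe and Kif11, all lower) and 1 for MFI8 against MASM7 (Aurka, lower), among 720, 554 and 439 genes. With the block in DESeq2 the members numbered 3 (Ccna2, Top2a, Kif11), 4 (Mcm6, Top2a, Cenpe, Kif11) and 0, all lower. They were among 220, 205 and 110 genes, of which 114, 44 and 65 were lower. With the block and the GC and length offsets they numbered 8 (Ccna2, Cdk1, Aurka, Bub1b, Top2a, Kif11, Kif23 and Ube2c, all lower), 0 and 4 (Cdk1, Aurka, Bub1b and Kif20a, all lower). These were among 595, 152 and 675 of 14290 genes, of which 348, 49 and 430 were lower. Why the block made these calls was not tested.

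Genes called over the whole table, in the order MFI8 against vehicle, MASM7 against vehicle and MFI8 against MASM7, were 0, 0 and 0 with DESeq2 size factors, library size alone, at least 10 counts or the offsets alone. They were 256, 127 and 168 with no filter, 49, 2 and 29 by the DESeq2 Wald test, 8, 14 and 13 by limma on log2(TPM + 1), 19, 18 and 19 on log2(TPM + 0.1), and 0, 1 and 2 with only the groups compared. Leaving out each library in turn gave 0 to 26, 0 to 2 and 0 to 24 genes and 0 members. The largest of these counts came without MFI8 1 (26 and 24). A group left with 1 library was assumed to vary like the others. The causes were not tested.

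Leaving out libraries, the MFI8 medians against vehicle ran from -0.16 to -0.036 for the mitotic group and from -0.044 to 0.056 for the replication group, with a difference from -0.22 to 0.0071. The MASM7 medians ran from -0.11 to 0.014 and from -0.047 to 0.031, with a difference from -0.14 to 0.062. Signs turned for Mcm5 (-0.025 to 0.15), Mcm2 (-0.011 to 0.11), Ccne2 (-0.25 to 0.011) and Mki67 (-0.0034 to 0.051) with MFI8, and for Birc5 (-0.0050 to 0.092) and Plk1 (-0.016 to 0.12) with MASM7, Plk1 being at -0.013 without Vehicle 1. With GC and length offsets the signs of Cdc20 (-0.013, and -0.014 with the block), Mki67 (-0.032 both ways) and Plk1 (-0.049, and -0.048 with the block) turned, and limma gave Mcm2 in MFI8 against MASM7 as 0.014 at both pseudocounts, where the median of all genes was 0.038 and 0.04. Depth was not limiting for these genes, and the number of libraries limits the precision.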
